A study of Mus musculus with 24 samples.

Results

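The adult globin genes and Alas2 were described in mouse hindlimb muscle 7 days after ligation of the femoral artery. The members were the 7 symbols Hba-a1, Hba-a2, Hbb-b1, Hbb-b2, Hbb-bs, Hbb-bt and Alas2, of 24016 symbols in the table. They were proposed with their lower levels in diabetic muscle in view, so their values in that contrast are given as a description with no test. Where a symbol had several transcripts, the one with the largest average RPKM (reads per kilobase of exon, scaled to the library's total reads) stood for it. All 7 members were among the 12382 genes kept for testing, which had to reach 1 RPKM in 6 or more libraries.

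Hemoglobin is built from alpha chains, encoded in mouse by the adjacent and nearly identical genes Hba-a1 and Hba-a2, and beta chains, encoded by an adjacent gene pair of the beta cluster. Each chain holds a heme group, and Alas2 is the enzyme of red cell precursors that catalyses the first step of heme synthesis, while other tissues use Alas1. Adult globin mRNA is made in maturing red cells and persists in reticulocytes, the youngest circulating red cells, so globin transcripts in a tissue sample are commonly read as a trace of blood, although alpha globin is also known in the endothelium of small arteries.

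The study compared control mice with mice described as type 2 diabetic, all on a C57BL/6 background and all with 1 femoral artery tied. From each mouse group the normoxic adductor, where the operation favours growth of arteries, and the ischemic gastrocnemius were taken, which gave 4 groups of 6 libraries. How diabetes was produced, the animals' age and sex, and whether same-numbered muscles came from 1 animal are not given in the sources used here. Where separate animals are not stated, p-values measure only the spread between these samples. Both muscles were rich in skeletal muscle transcripts, with a summed level of 8 muscle markers between 13300 and 76100 RPKM per library.

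Library totals ran from 7.13 to 15.6 M reads. A division of the libraries that is absent from the labels showed in Gapdh, a glycolytic enzyme that lay above 100 RPKM in 14 libraries (the first set) and below it in the other 10 (the second set). The control groups had 3 libraries in each set, and the diabetic groups had 4 in the first and 2 in the second, so values within each set are given beside the pooled ones. Alpha globin and the beta globins were higher in the second set. Summed globins ran from 12.2 to 182 RPKM in the first set and from 79.3 to 938 RPKM in the second.

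The 7 symbols amounted to 4 separate measurements, since rows of the table shared reads or positions. The sequences are shown for how alike the gene pairs are. The coding sequences of Hba-a1 and Hba-a2 (GENCODE M21 transcripts) differ at 1 of 429 bases, and those of Hbb-bs and Hbb-bt at 1 of 444. The stretches around these differences, coding bases 349 to 408 of the alpha genes and 385 to 444 of the beta genes, follow with the differing base in capitals.
Hba-a1: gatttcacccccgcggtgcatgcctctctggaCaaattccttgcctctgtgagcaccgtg
Hba-a2: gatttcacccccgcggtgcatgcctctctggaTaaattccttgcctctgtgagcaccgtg
Hbb-bs: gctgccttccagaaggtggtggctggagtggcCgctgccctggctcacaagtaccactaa
Hbb-bt: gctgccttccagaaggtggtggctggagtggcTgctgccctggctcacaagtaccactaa

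In the table, which uses mouse build mm9, Hba-a1 (NM_008218, chromosome 11, 32183672 to 32184486, plus strand) and Hba-a2 (NM_001083955, chromosome 11, 32196492 to 32197310, plus strand) held the same number of reads in all 24 libraries. Hbb-b1 (NM_001278161, chromosome 7, 110975046 to 110976443, minus strand) and Hbb-bs (NM_001201391, chromosome 7, 110975037 to 110976442, minus strand) overlap, and differed by at most 16 reads in a library. Hbb-b2 (NM_016956) and Hbb-bt (NM_008220) have the same position, chromosome 7, 110961038 to 110962437, minus strand, and the same reads. Hbb-bs and Hbb-bt are the names used for the beta genes of the C57BL/6 haplotype, and Hbb-b1 and Hbb-b2 those of another haplotype. Below, Hba-a1 therefore stands for alpha globin, Hbb-b1 for the upper-coordinate beta locus and Hbb-b2 for the lower-coordinate one. Of the 50-base words of the GENCODE transcripts, Hba-a1 shared 67.5% and Hba-a2 86.9% with the other alpha gene, and Hbb-bs shared 65.8% and Hbb-bt 58.3% with the other beta gene. How reads that match more than 1 place were treated is not given in the sources used here, so the split between the beta loci and the level of alpha against beta are uncertain.

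Alas2 (NM_001102446, chromosome X, 146981960 to 147005165, plus strand) was measured with few reads, 4 to 86 per library. Its GENCODE transcript shared 13.8% of its 50-base words with Apex2, a DNA repair gene that overlaps it, or with Mir3620. Apex2 had a mean of 1.44 ± 0.411 RPKM in control adductor, 1.32 ± 0.556 in diabetic adductor, 2.04 ± 0.531 in control gastrocnemius and 2.06 ± 0.961 in diabetic gastrocnemius (SD, n = 6 each). It thus did not show the low diabetic levels of Alas2.

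The members lie on 3 chromosomes. The 150 bases before the RefSeq start site (build GRCm38.p6) are shown because the members moved together across libraries. Capitals mark CCAAT, the GATA motifs AGATAA and TGATAA, the CACC-type motif CCNCNCCC and the TATA-like motifs ATATAA and ATAAAA, each searched on both strands.
Hba-a1 (chr11:32283522-32283671, plus strand): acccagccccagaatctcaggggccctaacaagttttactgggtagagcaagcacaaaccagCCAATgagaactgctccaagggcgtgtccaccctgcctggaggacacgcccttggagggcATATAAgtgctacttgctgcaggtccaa
Hbb-bs (chr7:103827929-103828078, minus strand): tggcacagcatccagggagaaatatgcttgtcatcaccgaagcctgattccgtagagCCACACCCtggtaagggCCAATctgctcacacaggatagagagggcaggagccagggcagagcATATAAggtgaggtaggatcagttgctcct
Hbb-bt (chr7:103813924-103814073, minus strand): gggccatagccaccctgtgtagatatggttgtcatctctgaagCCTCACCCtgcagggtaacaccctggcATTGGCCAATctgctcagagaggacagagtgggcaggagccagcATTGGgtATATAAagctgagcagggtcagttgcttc
Alas2 (chrX:150547267-150547416, plus strand): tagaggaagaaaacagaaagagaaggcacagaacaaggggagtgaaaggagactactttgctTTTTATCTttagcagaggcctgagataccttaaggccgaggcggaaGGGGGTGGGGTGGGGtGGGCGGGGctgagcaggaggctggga

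All 4 globin promoters matched in RefSeq (Hba-a1, Hba-a2, Hbb-bs and Hbb-bt) held CCAAT and ATATAA. In the same 150-base window CCAAT was found in 24.5% of 32851 promoters and ATATAA in 5.35%. Hbb-bs and Hbb-bt also held CCNCNCCC, the motif type bound by the erythroid factor KLF1, which stood in 38.1% of promoters. The Alas2 promoter held CCNCNCCC on the minus strand in 4 overlapping or adjacent places, and AGATAA on the minus strand at bases -86 to -81, where it overlaps an ATAAAA match at -88 to -83. AGATAA was found in 5.65% of promoters, TGATAA in 4.45% and ATAAAA in 10.1%. These matches describe letters in 1 window and were not tested for function.

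Alpha globin was lower in diabetic muscle. In the adductor Hba-a1 had a lowest, median and highest level of 20.2, 42.8 and 388 RPKM in control mice and 7.71, 18.6 and 49.9 RPKM in diabetic mice. In the gastrocnemius the levels were 14.6, 60.6 and 125 RPKM in control mice and 2.10, 8.28 and 60.4 RPKM in diabetic mice. The groups overlapped in both muscles: 3 of 6 diabetic adductor libraries and 4 of 6 diabetic gastrocnemius libraries lay below every control library, and the others, the diabetic libraries 5 and 6 of the second set in both muscles and library 1 in the adductor, lay within the control range. The fitted log2 difference, diabetic minus control, was -1.49 ± 0.78 (SE) in the adductor and -2.18 ± 0.78 in the gastrocnemius. Hba-a2, with the same reads, had the same differences. In bulk tissue, fewer cells that carry a transcript and less of it per cell cannot be told apart.

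Both beta loci followed the same order. Hbb-b1 ran from 47.9 to 455 RPKM with a median of 91.2 in control adductor, and from 21.5 to 92.4 with a median of 35.7 in diabetic adductor. In the gastrocnemius it ran from 42.4 to 261 RPKM with a median of 91.0 in control mice, and from 9.09 to 67.9 with a median of 17.8 in diabetic mice. In each muscle 4 of 6 diabetic libraries were below every control library. The log2 difference was -1.47 ± 0.55 in the adductor and -2.23 ± 0.55 in the gastrocnemius, and Hbb-bs gave the same values.

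Hbb-b2, the lower of the beta loci, had 8.89, 16.5 and 95.1 RPKM (lowest, median, highest) in control adductor and 2.55, 6.31 and 15.5 RPKM in diabetic adductor. In the gastrocnemius it had 5.78, 18.5 and 44.5 RPKM in control mice and 0.987, 3.16 and 12.5 RPKM in diabetic mice. Here 5 of 6 diabetic adductor libraries and 4 of 6 diabetic gastrocnemius libraries were below all control libraries. The log2 difference was -1.60 ± 0.61 in the adductor and -2.23 ± 0.61 in the gastrocnemius, also for Hbb-bt.

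Alas2 was the scarcest member, and its differences had the smallest SE. In the adductor it had 0.770, 1.52 and 4.28 RPKM (lowest, median, highest) in control mice and 0.233, 0.575 and 1.14 RPKM in diabetic mice. In the gastrocnemius it had 1.09, 1.62 and 2.97 RPKM in control mice and 0.143, 0.355 and 1.02 RPKM in diabetic mice. In the gastrocnemius the groups did not overlap, and in the adductor 4 of 6 diabetic libraries were below every control library. The lowest count, 4 reads, has an exact Poisson 95% interval of 1.09 to 10.2 reads, and the highest, 86 reads, one of 68.8 to 106, which cover counting error only. The log2 difference was -1.08 ± 0.29 in the adductor and -1.32 ± 0.29 in the gastrocnemius. On this scale a pseudocount of 0.5 was added, which understates the change of a gene as low as Alas2: with a pseudocount of 0.1 the gastrocnemius value was -1.95.

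For every member the 2 control groups had the higher medians, and their difference was within the spread of the libraries. Diabetic adductor came next and diabetic gastrocnemius last, with overlapping ranges.

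**Figure D1:**
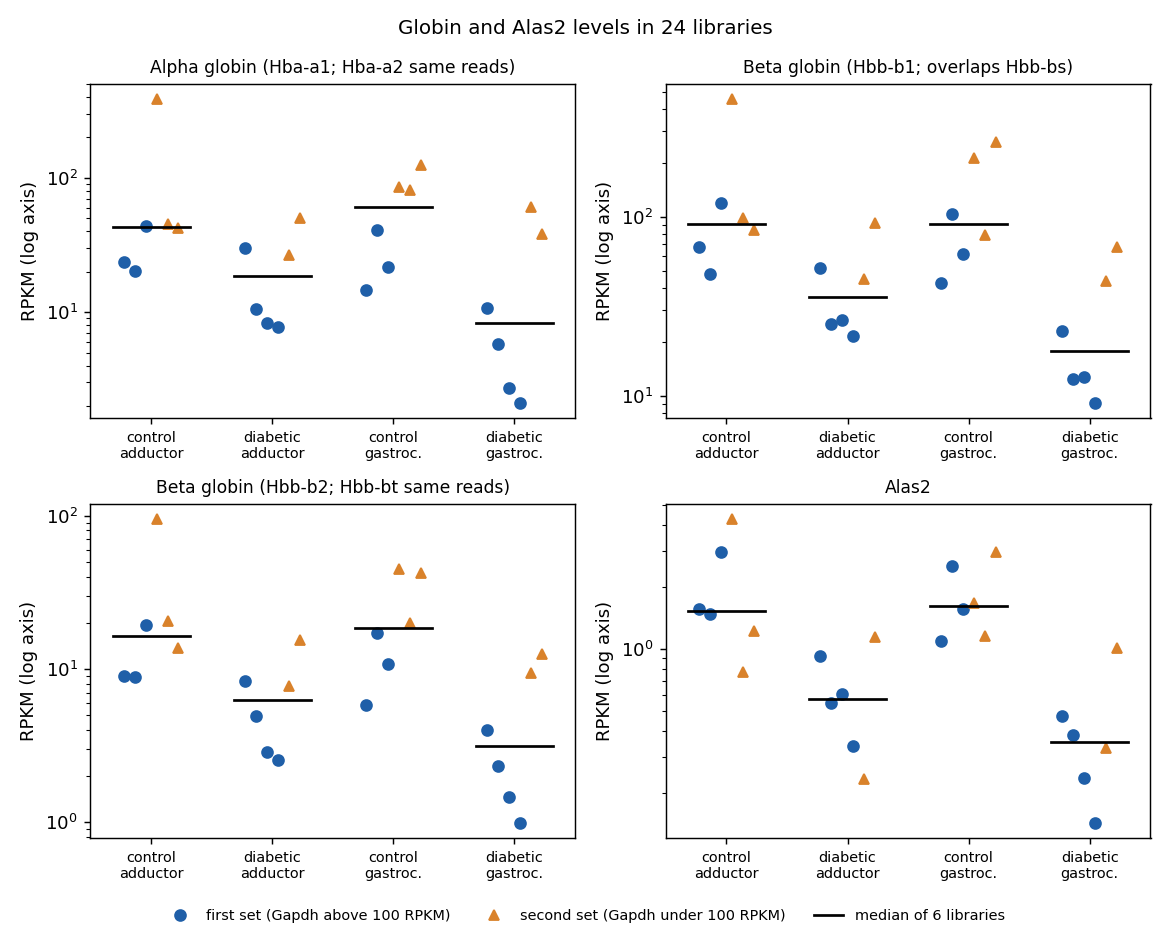
RPKM on a log axis of alpha globin, both beta loci and Alas2 in each of 24 libraries by group; circles are first-set and triangles second-set libraries, and a bar marks the median of 6. Diabetic medians lie below control medians in every panel, 1 control adductor library stands far above the others for the globins, and for Alas2 the gastrocnemius groups do not overlap.

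Among all 12382 tested genes, 0.0242% had all 6 diabetic adductor libraries below all 6 control libraries, and 0.0323% in the gastrocnemius. Of the members 0 of 7 did so in the adductor and 1 of 7, Alas2, in the gastrocnemius. Over all tested genes 4 were called at an adjusted p of 0.05 in the adductor (0.0323%) and 1 in the gastrocnemius (0.00808%), all 5 higher in diabetic mice. The median log2 difference of all tested genes was 0.04 in the adductor and -0.06 in the gastrocnemius. Since the members were chosen on these contrasts, nothing is read from their standing against that background.

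The differences inside each set of libraries are given as a description, since the members were chosen on these contrasts in the same libraries. In the adductor the first set gave log2 differences of -1.16 ± 0.55 for Hba-a1, -1.30 ± 0.40 for Hbb-b1, -1.36 ± 0.47 for Hbb-b2 and -1.16 ± 0.28 for Alas2. The second set, with 3 control and 2 diabetic libraries, gave -1.30 ± 0.84, -1.26 ± 0.76, -1.41 ± 0.73 and -1.0 ± 0.59 in the same order. In the gastrocnemius the first set gave -2.28 ± 0.55, -2.22 ± 0.40, -2.13 ± 0.47 and -1.43 ± 0.28, and the second set -0.97 ± 0.84, -1.58 ± 0.76, -1.59 ± 0.73 and -1.05 ± 0.59. All of these were negative, and in the gastrocnemius the values of the second set were the smaller ones for all 4 measurements.

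The library labelled control adductor 4 moved the adductor difference of the members most. It had 388 RPKM of Hba-a1, where the other 5 control adductor libraries had 20.2 to 45.3. Without it the adductor difference was -0.90 ± 0.73 for Hba-a1, -1.05 ± 0.51 for Hbb-b1, -1.14 ± 0.57 for Hbb-b2 and -0.87 ± 0.28 for Alas2. The same library also had the highest summed level in its group of platelet markers (24.4 RPKM, group median 15.5), neutrophil markers (15.2 RPKM, median 4.39), skeletal muscle markers (76100 RPKM, median 61700), iron handling genes (2320 RPKM, median 1470) and mitochondrial iron and heme transport genes (257 RPKM, median 211). It was not the highest of its group for the other lists looked at. Red cell membrane and cytoplasm genes were highest in control adductor 6. Erythroid factors and genes of heme breakdown were highest in control adductor 2, and heme synthesis enzymes in control adductor 5. The part of any of these genes in the globin level was not tested.

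Summed over alpha and both beta loci, globins had a median of 152 RPKM in control adductor (77 to 938) and 59.9 RPKM in diabetic adductor (31.8 to 158), a ratio of medians of 2.54. In the gastrocnemius the median was 170 RPKM in control mice (62.7 to 428) and 29.1 RPKM in diabetic mice (12.2 to 119), a ratio of 5.85. The ratios of the group means were closer, 3.66 in the adductor and 3.97 in the gastrocnemius, and for Hba-a1 alone that of the adductor was the larger, 4.22 against 3.06. Within the sets, first-set gastrocnemius libraries held 62.7 to 161 RPKM in the control group and 12.2 to 37.6 in the diabetic group. Second-set gastrocnemius libraries held 179 to 428 and 113 to 119 RPKM. These groups are of 3 control and 4 or 2 diabetic libraries. The share of all tested genes with such a gap was not counted, so nothing is read from it. In the adductor the groups overlapped in both sets, with 77 to 182 against 31.8 to 90.3 RPKM in the first and 140 to 938 against 79.3 to 158 RPKM in the second. Summed globin reads made up 7.52 to 563 reads per M reads of a library.

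**Figure D2:**
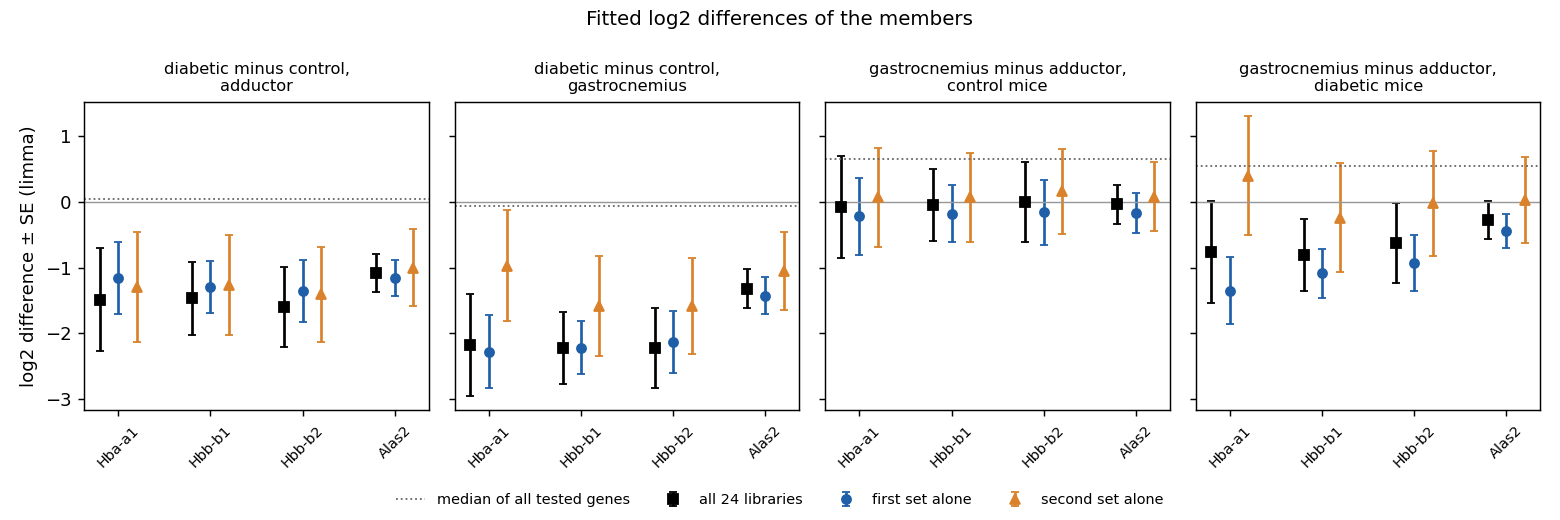
Log2 difference ± SE (limma) of 4 members in each of 4 contrasts, from all 24 libraries (squares), the first set alone (circles) and the second set alone (triangles); the dotted line is the median of all tested genes. Diabetic minus control values are below 0 in both muscles and both sets, while gastrocnemius minus adductor values in control mice scatter around 0.

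Proportions among the members overlapped between all groups. The ratio of alpha to beta RPKM had a median of 0.368 in control adductor (0.307 to 0.704), 0.408 in diabetic adductor (0.285 to 0.505), 0.335 in control gastrocnemius (0.299 to 0.814) and 0.397 in diabetic gastrocnemius (0.190 to 1.14). The ratio was higher in the second set (0.332 to 1.14) than in most of the first (0.190 to 0.498), and only 1 library, diabetic gastrocnemius 5, had more alpha than beta RPKM.

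The share of beta reads that fell to the Hbb-b2 locus was 9.78% to 20.1% over the 24 libraries, with a median of 14.5%. Group medians were 14.8% in control adductor, 14.0% in diabetic adductor, 14.6% in control gastrocnemius and 15.1% in diabetic gastrocnemius. The exact binomial 95% interval of the lowest share, in diabetic gastrocnemius 4, was 4.57% to 17.8%, and that of the highest, in control gastrocnemius 5, was 16.7% to 23.8%. The groups overlapped widely.

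Alas2 relative to the globins separated the sets of libraries, and its ranges overlapped between the mouse groups. Per 1000 RPKM of summed globin, Alas2 had 10.3 to 19.3 RPKM in the 14 first-set libraries and 2.91 to 8.78 RPKM in the 10 second-set libraries, which did not overlap. Group medians were 12.2 in control adductor, 10.5 in diabetic adductor, 11.3 in control gastrocnemius and 12.2 in diabetic gastrocnemius. These medians mix the sets, which the mouse groups held in unequal parts. Inside the first set the control libraries held 15.6 to 19.3 (median 16.2) in the adductor and 15.7 to 17.4 (median 16.7) in the gastrocnemius. The diabetic libraries there held 10.3 to 16 (median 12.1) and 11.7 to 18.5 (median 13.3). Control and diabetic ranges thus overlapped, with lower diabetic medians. In the second set the medians were 4.69 and 6.46 in control and 5.08 and 5.73 in diabetic adductor and gastrocnemius.

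**Figure D3:**
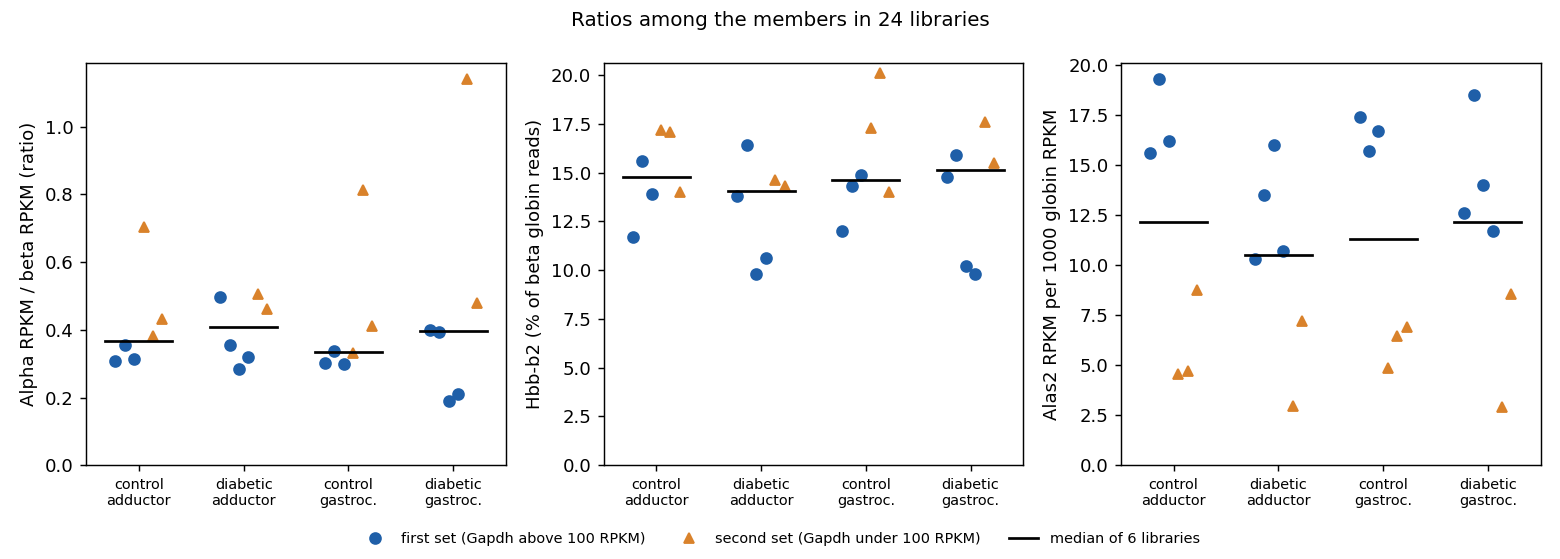
Alpha to beta RPKM ratio, percent of beta globin reads at the Hbb-b2 locus and Alas2 RPKM per 1000 RPKM of summed globin in each of 24 libraries by group; circles are first-set and triangles second-set libraries, and bars are medians of 6. Medians over both sets are close among the groups. In the third panel every first-set library (10.3 to 19.3) lies above every second-set library (2.91 to 8.78). First-set medians there are 16.2 and 16.7 in control and 12.1 and 13.3 in diabetic adductor and gastrocnemius.

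Across the 24 libraries the globin levels rose and fell together, as a description on the log2(RPKM + 0.5) scale. Pearson's r was 0.95 between Hba-a1 and Hbb-b1, 0.97 between Hba-a1 and Hbb-b2 and 0.99 between Hbb-b1 and Hbb-b2. For Alas2 it was 0.75 with Hba-a1, 0.87 with Hbb-b1 and 0.83 with Hbb-b2. After group means were removed the globin pairs had r of 0.94 to 0.98 and the Alas2 pairs 0.59 to 0.72. After means of group and set were removed the Alas2 pairs had 0.81 to 0.92. The points share library, depth and, for the globins, similar sequence.

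The next comparison asked how the members differed between ischemic gastrocnemius and normoxic adductor. In control mice the log2 differences, gastrocnemius minus adductor, lay between -0.08 and 0.00 with adjusted p of 0.91 to 1 in limma, whereas 63.1% of all tested genes were called (54.4% with higher and 8.70% with lower values in the gastrocnemius). With SE of 0.29 to 0.78, differences of about that size were not detectable. In diabetic mice, where 56.9% of tested genes were called (48.1% higher and 8.83% lower), none of the 7 members passed: Hba-a1 had -0.76 ± 0.78 (adjusted p = 0.42), Hbb-b1 -0.81 ± 0.55 (0.22), Hbb-b2 -0.63 ± 0.61 (0.40) and Alas2 -0.28 ± 0.29 (0.43).

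The contrast was also fitted with same-numbered muscles of a mouse group as pairs. Whether such muscles came from 1 animal is not known. Their deviations from group means correlated (r of 0.25 to 0.74), but within sets r was -0.09 to 0.63. With the replicate block the difference in diabetic mice passed for Hbb-b1 and Hbb-bs (adjusted p = 0.028 each) and did not for Hbb-b2 (0.067), Hba-a1 (0.12) and Alas2 (0.30). Of all 12382 tested genes 8498 passed in that fit. Among the 6 same-numbered pairs of diabetic mice, Hbb-b1 was lower in the gastrocnemius in 6, and Hba-a1, Hbb-b2 and Alas2 in 5. The median paired log2 difference was -1.0 for Hbb-b1, -1.13 for Hba-a1, -0.86 for Hbb-b2 and -0.32 for Alas2. In control mice the gastrocnemius was lower in 4 of 6 pairs for Hbb-b1 and Hbb-b2 and in 3 of 6 for Hba-a1 and Alas2.

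In the first set alone the diabetic muscle difference was -1.09 ± 0.37 for Hbb-b1 (adjusted p = 0.021) and -1.35 ± 0.51 for Hba-a1 (adjusted p = 0.033). For Hbb-b2 it was -0.93 ± 0.43 and for Alas2 -0.44 ± 0.26, and neither passed. In the second set, with 2 diabetic libraries per muscle, it was -0.24 ± 0.83 for Hbb-b1 and 0.40 ± 0.91 for Hba-a1. For Hbb-b2 it was -0.02 ± 0.80 there and for Alas2 0.03 ± 0.65. Across the alternatives other than leaving out 1 library, the sets alone among them, 5984 to 8769 genes were called in this contrast. The scaling of the libraries also matters here. Median-of-ratios scaling lowered the median difference of all tested genes by 0.68 in control and by 0.59 in diabetic mice, and the share of called genes that were higher in the gastrocnemius went from 86.2% to 51.8% and from 84.5% to 51.1%. Relative to the median of all tested genes, members lay at -0.74 to -0.67 in control and -1.36 to -0.84 in diabetic mice. On the rescaled values the adjusted p was 0.043 for Hbb-b1 and 0.044 for Hbb-bs in diabetic mice, and 0.11 to 0.17 for the other 5. In control mice it was 0.076 for Alas2 and 0.24 to 0.40 for the globins. Of all 12382 tested genes 6644 were called in diabetic and 6799 in control mice under that scaling.

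**Figure D4:**
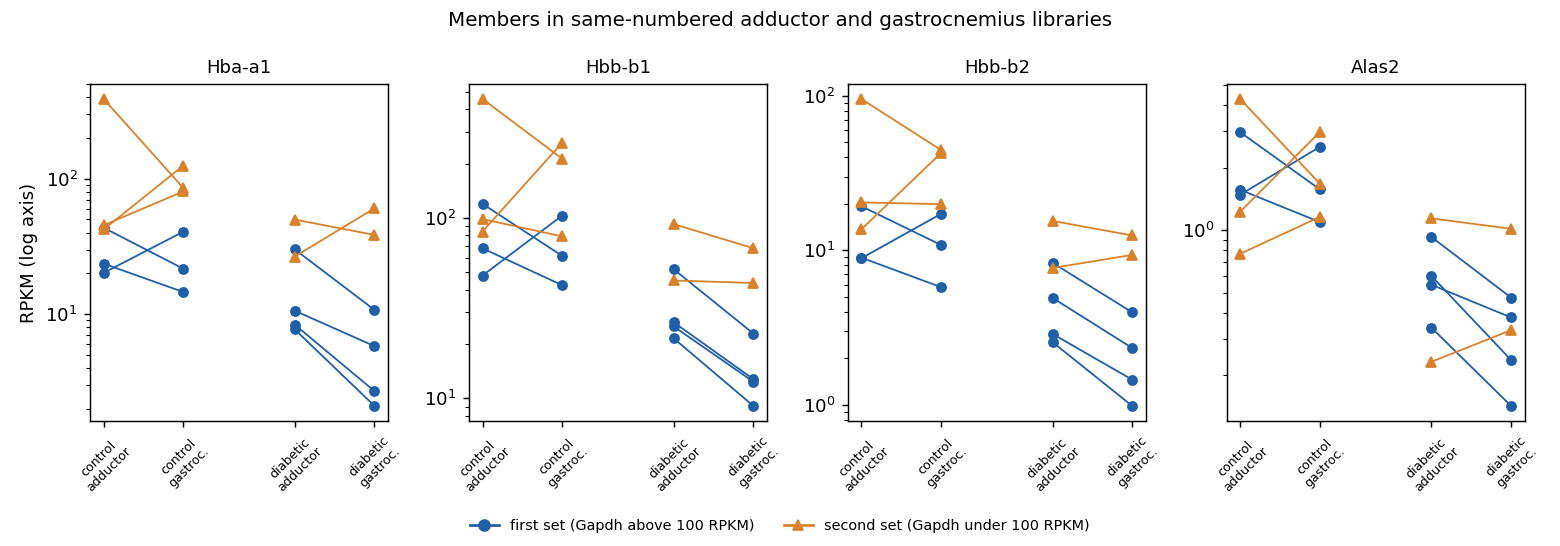
RPKM on a log axis of 4 members in same-numbered adductor and gastrocnemius libraries of control (left) and diabetic mice (right), joined by lines; circles are first-set and triangles second-set libraries. In diabetic mice all 6 Hbb-b1 lines fall towards the gastrocnemius, and in control mice lines run both ways.

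Whether the diabetes difference was larger in 1 muscle than in the other was tested directly. The difference of the effects, gastrocnemius minus adductor, was -0.69 ± 1.10 for Hba-a1, -0.76 ± 0.78 for Hbb-b1, -0.63 ± 0.86 for Hbb-b2 and -0.24 ± 0.41 for Alas2, each with an adjusted p of 1 in limma. Over all tested genes 0 were called, and 154 had an unadjusted p under 0.05. Under median-of-ratios scaling, which raised the median of all genes by 0.10 here, the Alas2 value changed sign to 0.07. The larger ratios of medians in the gastrocnemius are therefore not shown to differ from those in the adductor.

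The other genes of the heme pathway are given by lists. With 0.0323% of all tested genes called for diabetes in the adductor and 0.00808% in the gastrocnemius, a count of 0 calls says nothing about a list, so medians and single values are given beside it. Of the other 8 enzymes of heme synthesis, all tested, 0 were called in either diabetes contrast. Their median log2 difference was 0.01 in both muscles, where all tested genes had 0.04 and -0.06. Alas1, the enzyme of other tissues for the same first step, had 33.8 ± 13.3 RPKM in the adductor of control mice and 21.5 ± 8.19 in that of diabetic mice, with a log2 difference of -0.62 ± 0.24 (adjusted p = 1). In the gastrocnemius it had 32.4 ± 6.81 and 32.3 ± 4.54 RPKM. Fech, which inserts iron into the ring to complete heme, had 36.6 ± 4.95 and 38.3 ± 10.1 RPKM in the adductor and 33.2 ± 6.79 and 31.2 ± 6.17 RPKM in the gastrocnemius (SD, n = 6 each).

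Between muscles the enzymes parted. Ppox, which oxidises protoporphyrinogen, was higher in the gastrocnemius by 0.84 in control and 1.01 in diabetic mice (adjusted p = 0.00022 and 3.1e-05). Cpox, which acts on the preceding intermediate, fell by 0.75 and 0.73 (adjusted p = 0.0026 and 0.004). In all 1 enzyme was higher and 1 lower in control mice, and 3 were higher, among them Alas1 (0.64, adjusted p = 0.027), and 1 lower in diabetic mice, against 54.4% higher and 8.70% lower of all tested genes in control mice and 48.1% and 8.83% in diabetic mice. These shares are the background of the muscle counts of every list below. Under median-of-ratios scaling 0 were higher and 6 lower in control mice, and 1 was higher and 3 lower in diabetic mice, so the direction of the list depends on the scaling.

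None of the 12 genes of mitochondrial iron and heme transport was called for diabetes, and their medians were 0.05 and -0.04. Between muscles 3 of 12 were higher and 1 lower in each mouse group, a smaller part higher than of all tested genes (54.4% and 48.1%). Tmem14c, which carries a heme precursor into the mitochondrial matrix, was higher in the gastrocnemius by 0.83 and 0.85 (adjusted p = 0.0021 and 0.002). With median-of-ratios scaling 0 of the 12 were higher and 8 and 7 were lower.

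The embryonic globin genes Hbb-y, Hbb-bh1 and Hbb-bh2 were at 0 in all 24 libraries, and Hba-x had 2 reads in all. The theta globins Hbq1a and Hbq1b had 6 and 3 reads, too few to compare the groups. Mb, the oxygen-storing myoglobin of muscle fibres, had 881 ± 231 RPKM in the adductor of control mice and 1200 ± 569 in that of diabetic mice, and 737 ± 378 and 957 ± 633 RPKM in the gastrocnemius. Its diabetes differences were 0.37 ± 0.46 and 0.26 ± 0.46 (SE, adjusted p = 1 each). Both were smaller than their SE, so no direction is read from them. Cygb, a globin of connective tissue cells, was called for muscle only, higher in the gastrocnemius by 1.75 in control and 1.5 in diabetic mice (adjusted p = 2.3e-07 and 2e-06).

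Transcripts of nucleated red cell precursors were measured with few reads. Over all 24 libraries the erythroid transcription factors Gata1, Klf1 and Nfe2 had 27, 35 and 64 reads, and Hemgn 5. Of 10 genes on this list 4 were tested, and 0 were called for diabetes, with a median of 0.00 in the adductor and 0.01 in the gastrocnemius. All 4 were higher in the gastrocnemius of both mouse groups, among them Lmo2 (1.88 and 1.75, adjusted p = 8e-07 and 2.6e-06) and Ldb1 (1.53 and 1.59, adjusted p = 2e-07 and 1.5e-07), cofactors that other cell types also express. Under median-of-ratios scaling 3 were called higher in control mice and 4 in diabetic mice.

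Of 29 genes of the red cell membrane and cytoplasm, 15 were tested and 0 were called for diabetes, with a median of 0.03 in both muscles. The most abundant were Prdx2, a peroxidase, and Aqp1, a water channel, both also made by other cells. Prdx2 had diabetes differences of -0.03 and 0.03 and Aqp1 of -0.05 and 0.05 (adjusted p = 1 each). Between muscles 4 were higher and 6 lower in control mice, and 4 higher and 5 lower in diabetic mice, among them Aqp1, which fell by 1.40 and 1.31 (adjusted p = 9.2e-05 and 0.00023). Under median-of-ratios scaling 2 were higher and 9 lower in control mice, and 2 higher and 8 lower in diabetic mice.

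A gene largely restricted to red cells was too scarce to test. Slc4a1, the anion exchanger band 3, had 18 reads in the control and 6 in the diabetic adductor libraries, and 22 and 10 in the gastrocnemius. The diabetic groups thus had fewer reads of it, and it was named after its values were seen.

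Of 8 tested genes that capture and break down hemoglobin and heme, 7 were higher in the gastrocnemius of both mouse groups, where 54.4% and 48.1% of all tested genes were. For diabetes 0 of the 8 were called, with a median of -0.08 in both muscles. Hmox1, which opens the heme ring, had 9.24 ± 6.19 RPKM in control adductor and 74.2 ± 38.9 RPKM in control gastrocnemius, a log2 difference of 2.92 (adjusted p = 2.3e-05). In diabetic mice it had 6.05 ± 1.35 and 34.2 ± 15.0 RPKM, a difference of 2.25 (adjusted p = 0.00049). Its diabetes difference in the gastrocnemius was -0.99 (unadjusted p = 0.057, adjusted p = 1). Hp, which encodes the hemoglobin-binding protein haptoglobin, was higher in the gastrocnemius by 2.70 and 3.0 (adjusted p = 0.00018 and 7e-05), and Blvrb, a biliverdin reductase, by 2.09 and 2.12 (adjusted p = 2.8e-07 each). With median-of-ratios scaling 5 of 8 were higher and 1 lower in each mouse group.

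Of 10 tested genes of iron handling 0 were called for diabetes. Ftl1, the light chain of the iron store ferritin, was higher in the gastrocnemius by 2.88 and 2.91 (adjusted p = 3.1e-07 and 3.4e-07), and Fth1, the heavy chain, had -0.13 and -0.21 (adjusted p = 0.73 and 0.57). Tfrc, the transferrin receptor, had 28.3 ± 9.84 RPKM in the adductor of control mice and 15 ± 12.9 in that of diabetic mice. Its log2 difference there was -1.21 ± 0.39 (SE, limma unadjusted p = 0.0048, adjusted p = 1). In the gastrocnemius the Tfrc difference was -0.33 ± 0.39.

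**Figure D5:**
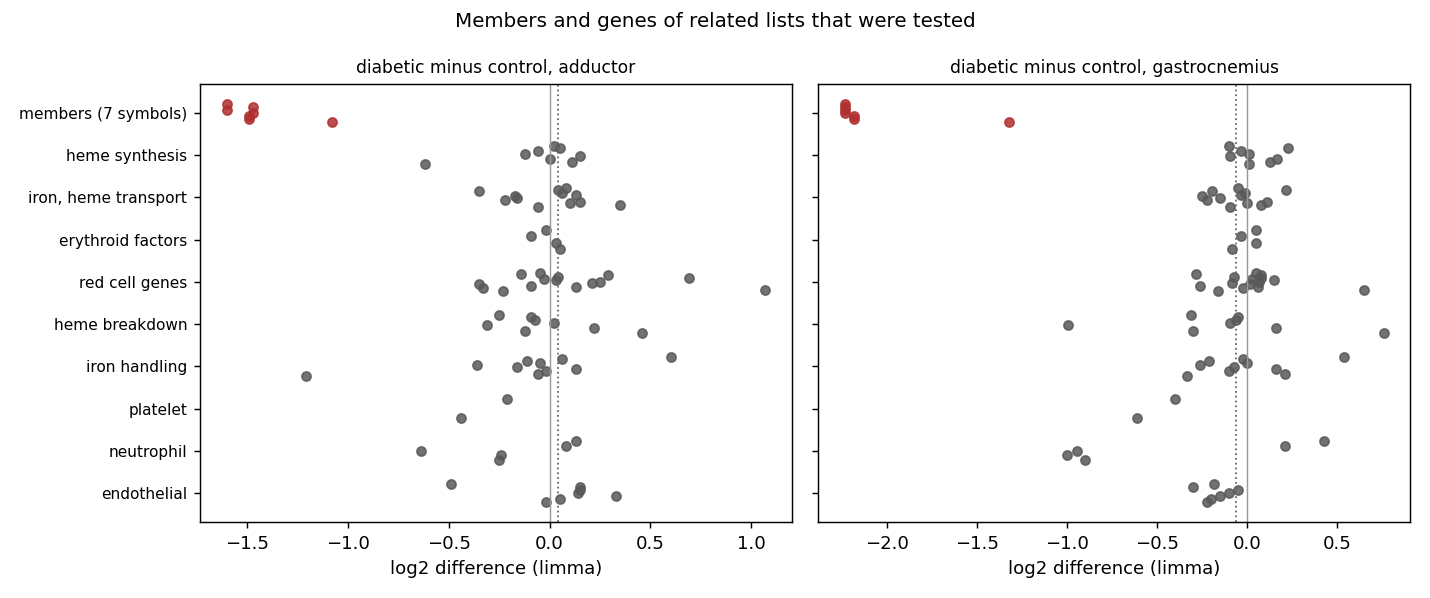
Log2 difference (limma), diabetic minus control, in adductor (left) and gastrocnemius (right) of the 7 members and of the tested genes of 9 related lists; each point is 1 gene and the dotted line is the median of all tested genes. The members, which were chosen on this difference, lie at -1.60 to -1.08 and at -2.23 to -1.32, and list medians lie between -0.18 and 0.14 except for the few platelet and neutrophil genes.

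Markers of other blood and vessel cells were looked at beside the members. For diabetes 0 of them were called, against 0.0323% and 0.00808% of all tested genes, so their values are given. Of 10 platelet markers 2 were tested. Pf4, a platelet chemokine that macrophages also make, had diabetes differences of -0.44 in the adductor and -0.61 in the gastrocnemius, and it was higher in the gastrocnemius by 2.98 and 2.80 (adjusted p = 7.7e-06 and 2e-05). The summed platelet markers ran from 7.72 to 24.4 RPKM in the adductor of control mice and from 7.27 to 23.8 in that of diabetic mice, and from 26 to 183 and 21.1 to 121 RPKM in the gastrocnemius. Of 11 neutrophil markers 5 were tested, with a median diabetes difference of -0.24 in the adductor and -0.90 in the gastrocnemius. The abundant neutrophil genes S100a8 and S100a9 had -0.90 and -1.0 in the gastrocnemius (adjusted p = 1 each). The neutrophil receptor genes Csf3r and Cxcr2 had 0.43 and 0.21 there, the opposite sign (adjusted p = 1 each). Summed neutrophil markers ran from 2.55 to 15.2 and 2.44 to 10.9 RPKM in the adductor and from 3.06 to 28.1 and 5.10 to 15.9 RPKM in the gastrocnemius, so the mouse groups overlapped. The part of these cells in the globin difference was not tested.

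Summed B cell markers ran from 0.165 to 18.7 RPKM in control adductor and from 0.201 to 0.838 RPKM in diabetic adductor, and the highest library was control adductor 5, not the globin-rich library 4. The 7 endothelial markers had diabetes medians of 0.14 in the adductor and -0.18 in the gastrocnemius, and the 6 genes of arterial endothelium had -0.01 and -0.17. Cyb5r3, the reductase that acts on alpha globin in arterial endothelium, had 0.05 and -0.11 (adjusted p = 1 each). The 6 macrophage markers were all higher in the gastrocnemius of both mouse groups, led by Cd68 (4.57 and 3.71, adjusted p = 2.8e-08 and 3.6e-07).

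The genes outside the members whose levels were most like theirs stood on none of the red cell or heme lists. Likeness was Pearson's r over 24 libraries between a gene's and the summed members' log2 values after group means were removed, with no test. Among the 8 highest were Eny2 and Zcchc17 (0.84 and 0.83), BC051226 (0.83), Ppp1r15a and Arl2 (0.82 each), and Mrpl33 and Pdlim1 (0.81 each). After the means of group and set were removed r ran from 0.45 for Mrpl33 to 0.64 for Ppp1r15a, and most of these genes were replaced at the top. Eny2 then stood at rank 24, Zcchc17 at 45, Arl2 at 77, Pdlim1 at 80 and Mrpl33 at 137, while 2900060B14Rik (0.71) and Ccdc101 (0.65) led, ahead of Ppp1r15a and BC051226 at ranks 3 and 4. With Spearman's rho in place of r, Ppp1r15a went from rank 4 to 335 among all tested genes, while Zcchc17, Eny2 and Pdlim1 stood at ranks 1, 2 and 3.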

How the data were processed

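Poly(A) RNA libraries of 24 muscle samples were analysed from a table of RPKM values that the authors deposited; per the file headers these were computed with HOMER over exons of RefSeq transcripts in mm9, relative to library totals of 7.13 to 15.6 M reads. TopHat is named in the submitters' processing notes without a version. The header shows no strand option. RPKM times length and total gave whole reads within 0.01 for 99.97% of values above 0.

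The 12382 genes that reached 1 RPKM in 6 or more libraries were fitted as log2(RPKM + 0.5) with limma 3.58.1 in R 4.3.3 (4 group means, trended variance) and p-values were adjusted by Benjamini-Hochberg over all tested genes at 0.05. The fit was checked on simulated data. The named genes were all members, up to 4 called genes and the 2 most abundant of each list, genes at 0 throughout, and the 8 genes most like the members; others named are Slc4a1 and the neighbour Apex2. A few genes that this rule names are not reported here. The members and the lists were chosen with earlier results of these data known. Coordinates are mm9, and promoter positions GRCm38.p6; nothing was converted.

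Same-numbered muscles of a mouse group were treated as pairs in an alternative fit. Their deviations from group means correlated across genes in all 12 pairs (r of 0.25 to 0.74), but within sets r was -0.09 to 0.63. Control and diabetic libraries of the same number, which come from different mice, had r of -0.66 to 0.82. The correlations thus do not show that same-numbered muscles came from 1 animal. Alternatives were other pseudocounts (0.1 and 1), filters, scaling, voom on the recovered reads, transcript choice, the block, sets and leaving out each library.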

Additional observations from a re-analysis of the deposited data

Results flagged for a closer look

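In 6 of 28 groups of 6 libraries looked at, 1 library lay farther from its neighbours than the 95% limit of Dixon's test allows. For normally spread, independent values chance flags about 1 group in 20. The levels here were RPKM without a log, the globin levels rose and fell together, and the alpha to beta ratio is computed from them. The count of flags can therefore not be set against that rate. Control adductor 4 had 388 RPKM of Hba-a1 (next highest 45.3), 455 RPKM of Hbb-b1 (next 120), 95.1 RPKM of Hbb-b2 (next 20.4) and an alpha to beta ratio of 0.704 (next 0.432). Its Alas2 level, 4.28 RPKM, was the highest of the series but was not set apart by this test. The alpha to beta ratio also stood apart in control gastrocnemius 5 (0.814, next 0.412) and in diabetic gastrocnemius 5 (1.14, next 0.478). All 3 libraries belong to the second set.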

How the results depend on the processing

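All 278 diabetes differences of Hba-a1, Hbb-b1, Hbb-b2 and Alas2 under the alternatives were negative. This describes members that were chosen on these contrasts in the same libraries. A filter of 2 RPKM left no value for Alas2. The Alas2 difference in the gastrocnemius moved from -1.32 to -1.95 with a pseudocount of 0.1 and to -2.24 with voom on the recovered reads. The cause was not tested. The number of genes called in the diabetes contrasts was small and unstable: in the adductor 4, with 1 in the first set alone and 14 in the second, and in the gastrocnemius 1, with 2 at a pseudocount of 1, 4 with no filter, 0 with a term for the set, 0 in the first set and 27 in the second. For the difference of effects 0 became 1 in the second set. Leaving out 1 library at a time gave 1 to 4, 0 to 3 and 0 to 0 calls for these contrasts, 7233 to 8011 for muscle in control mice and 6531 to 7242 in diabetic mice. With the replicate block the 5 contrasts had 5, 1, 0, 9168 and 8498 calls, and apart from the Hbb-b1 and Hbb-bs muscle difference in diabetic mice the block changed no member's call.

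Some differences with adjusted p of 0.42 or more changed sign. In the second set alone the muscle difference in control mice was 0.07 for Hba-a1, 0.07 for Hbb-b1 and 0.08 for Alas2, that in diabetic mice 0.40 for Hba-a1 and 0.03 for Alas2, and the difference of effects 0.33 for Hba-a1; under median-of-ratios scaling that of Alas2 was 0.07. Leaving out 1 library gave -0.36 to 0.51 for Hba-a1, -0.32 to 0.37 for Hbb-b1 and -0.21 to 0.17 for Alas2 in the control muscle contrast, each highest without control adductor 4. Few reads limit Alas2, with 4 in the lowest libraries.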
